A study of Mus musculus with 6 samples.

Results

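The genes described here are 10 that fuse or divide mitochondria: Opa1, Mfn1 and Mfn2 of the fusion machinery, the fission GTPase Dnm1l, its outer membrane adaptors Fis1, Mff, Mief1 and Mief2, and Gdap1 and Mtfp1, which are linked to fission. They were chosen by name, with earlier results of these data known. All of their transcripts in the GENCODE M21 annotation of the mouse genome GRCm38 were taken, 71 annotated transcripts in all. Reads were found on 54 of these, of 59371 annotated transcripts with a read, and on 9 of the 10 genes, of 21730 genes with a read. Together the genes held 6820 reads.

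The tissue was interscapular brown fat, from wild type males of the C57BL/6N strain at an age of 20 weeks. Cold mice 4, 11 and 15 had been housed singly at 4 °C for 24 h, and ctrl mice 2, 9 and 14 had been kept at 22 to 24 °C, for which the labels do not state single housing, so the effects of cold and of single housing cannot be told apart. Each mouse gave 1 direct cDNA library, made without PCR from 100 ng of poly(A) RNA, read as long Nanopore reads on 2 flow cells that were summed here. Libraries held between 1657985 and 2238056 reads. All 10 brown adipocyte markers examined, Ucp1 among them, had reads, with summed levels of 38240 to 40190 CPM (read counts over the TMM-scaled library size) in cold mice and 28280 to 31500 CPM in ctrl mice. Skeletal muscle markers, all 14 of 14 detected, varied more between mice: they summed to 382, 1612 and 3941 CPM in cold mice 4, 11 and 15 and to 198.5, 547 and 804.5 CPM in ctrl mice 2, 9 and 14. Markers of endothelium summed to 294 to 320 CPM in cold and 252 to 255 CPM in ctrl mice, those of macrophages to 81.2 to 111 and 57.7 to 84.2 CPM, and those of fibroblasts and preadipocytes to 201 to 257 and 229 to 277 CPM. At an adjusted p of 0.05 (edgeR), 4 of the 10 brown adipocyte markers were higher and 1 was lower in cold mice. Of 6 endothelial markers 1 was higher, and of 5 tested fibroblast and preadipocyte markers 2 were lower. Among tested markers, 0 of 13 of muscle and 0 of 4 of macrophages were called. Over all tested genes 20.0% were called. Mitochondrially encoded genes took 27.6 to 29.0% of reads in cold and 29.7 to 32.5% in ctrl mice. The part of cell makeup in the results was not tested, beyond the values given with muscle markers as a covariate.

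Mitochondria constantly join and split. Mfn1 and Mfn2 tether and merge outer membranes, and Opa1 merges inner membranes and shapes cristae. Division starts when Dnm1l, a dynamin-like GTPase of the cytosol, is recruited to the outer membrane by its adaptors and constricts the organelle. In brown adipocytes adrenergic stimulation is known to bring about mitochondrial division through phosphorylation of the Dnm1l protein, a step that transcript counts do not measure. Opa1, Dnm1l and Mff are also known for alternative splicing, which changes the protease sites of the Opa1 protein (known from human OPA1), inserts residues in the GTPase and variable regions of Dnm1l, and changes the stretch of Mff that lies before its membrane anchor.

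The splice forms were separated by 8 coding cassette exons, 2 in Opa1, 3 in Dnm1l and 3 in Mff, each of a length that keeps the reading frame, and by alternative first exons of Fis1. Their sequences are shown because the results on splice forms rest on which of them a counted transcript holds. Each is read 5′ to 3′ in the direction of the gene from the GENCODE M21 transcript of GRCm38, with the alternative exon in capitals and 12 bases of the neighbouring exons in lower case. The Opa1 exons lie at chr16:29588823-29588876 (54 nt) and chr16:29597586-29597696 (111 nt) on the plus strand. The Dnm1l exons lie on the minus strand at chr16:16342697-16342735 (39 nt), chr16:16318764-16318841 (78 nt) and chr16:16318445-16318477 (33 nt). The Mff exons lie on the plus strand at chr1:82737013-82737087 (75 nt), chr1:82741818-82741976 (159 nt) and chr1:82747083-82747142 (60 nt).
Opa1 exon of 54 nt: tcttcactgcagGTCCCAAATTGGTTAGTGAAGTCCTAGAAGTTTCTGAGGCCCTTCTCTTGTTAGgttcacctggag
Opa1 exon of 111 nt: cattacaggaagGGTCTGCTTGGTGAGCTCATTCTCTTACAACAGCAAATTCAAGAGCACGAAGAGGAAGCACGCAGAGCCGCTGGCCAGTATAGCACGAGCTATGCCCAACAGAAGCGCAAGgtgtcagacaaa
Dnm1l exon of 39 nt: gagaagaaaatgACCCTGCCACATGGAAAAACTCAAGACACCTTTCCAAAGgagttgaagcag
Dnm1l exon of 78 nt: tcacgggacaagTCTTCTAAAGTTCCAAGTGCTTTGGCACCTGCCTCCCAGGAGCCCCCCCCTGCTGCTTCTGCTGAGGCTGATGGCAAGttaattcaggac
Dnm1l exon of 33 nt: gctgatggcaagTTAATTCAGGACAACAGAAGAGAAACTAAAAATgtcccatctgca
Mff exon of 75 nt: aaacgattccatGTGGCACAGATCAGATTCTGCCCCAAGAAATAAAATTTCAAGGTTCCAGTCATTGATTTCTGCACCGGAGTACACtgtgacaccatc
Mff exon of 159 nt: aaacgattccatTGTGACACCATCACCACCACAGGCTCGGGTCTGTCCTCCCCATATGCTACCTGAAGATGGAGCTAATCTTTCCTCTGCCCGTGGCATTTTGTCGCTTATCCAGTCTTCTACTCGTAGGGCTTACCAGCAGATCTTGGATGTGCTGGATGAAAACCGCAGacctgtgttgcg
Mff exon of 60 nt: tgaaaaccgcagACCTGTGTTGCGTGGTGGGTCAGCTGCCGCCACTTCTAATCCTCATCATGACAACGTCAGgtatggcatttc

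The coding starts of the 2 main Fis1 transcripts follow, from the start codon to the end of the first exon in capitals and 12 bases of the shared next exon in lower case. That of Fis1-201 lies at chr5:136962184-136962228 and that of Fis1-202 at chr5:136953567-136953590, both on the plus strand, with 8486 nt between the first exons. Fis1-201 thus starts with 45 coding bases and Fis1-202 with 24 others, and the following coding exons are the same.
Fis1-201: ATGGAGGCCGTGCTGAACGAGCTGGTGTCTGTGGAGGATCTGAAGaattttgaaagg
Fis1-202: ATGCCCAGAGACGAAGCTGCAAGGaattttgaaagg

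The first question was whether any of the genes differed between cold and ctrl mice in the sum of its transcripts. At the gene level none of the 9 tested genes passed edgeR's quasi-likelihood test at an adjusted p of 0.05, while 20.0% of all 8684 tested genes did, 869 of them higher and 870 lower in cold mice. One of the 9, Mief2, had an unadjusted p under 0.05, against 31.4% of all tested genes. DESeq2 called 0 of the 9 at an adjusted p of 0.05, beside 10.7% of all tested genes. The fold changes were small: 7 genes had a log2 fold change above 0 and 2 below, with a median of 0.09 beside 0.00 (0.0014) over all tested genes. Apart from Mief2 the estimates lay within 0.19 of 0 on the log2 scale, and the 95% intervals of these 8 genes reached at most 0.61. In tissue RNA, fewer cells of a type and less RNA per cell cannot be told apart.

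Among the fusion genes, Opa1 (chromosome 16, 29579334 to 29654884) had 86.0, 84.7 and 94.9 CPM in cold mice 4, 11 and 15, against 79.85, 89.8 and 79.1 CPM in ctrl mice 2, 9 and 14. The groups overlapped, and the log2 fold change was 0.09 (SE 0.11, 95% interval -0.13 to 0.32, adjusted p = 0.63). Mfn2 (chromosome 4, 147873599 to 147904704), the mitofusin that also tethers mitochondria to the endoplasmic reticulum, had 130.9, 123.2 and 139.2 CPM in cold mice and 142.9, 122.0 and 121.0 CPM in ctrl mice. Its highest value was in ctrl mouse 2, and the interval of its log2 fold change, -0.18 to 0.24, was among the narrowest (adjusted p = 0.887). Mfn1 (chromosome 3, 32529465 to 32579239), the other mitofusin, had 23.7, 33.1 and 20.4 CPM in cold mice and 21.4, 18.4 and 27.9 CPM in ctrl mice. Cold mouse 11 stood highest, and without it the log2 fold change of Mfn1 was -0.03 in place of 0.19 (adjusted p = 0.58 with all mice).

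Dnm1l (chromosome 16, 16312230 to 16358959) had 26.6, 30.6 and 27.4 CPM in cold mice and 25.5, 26.5 and 32.6 CPM in ctrl mice. The means were 28.2 ± 2.11 CPM in cold and 28.2 ± 3.83 CPM in ctrl mice (SD, n = 3 each), and the 95% interval of the log2 fold change ran from -0.35 to 0.33 (adjusted p = 0.978). Of its reads, 305 of 329 fell on transcripts that overlap an antisense gene on the opposite strand, which itself had 1 read.

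Of the adaptors, Mff (chromosome 1, 82724890 to 82752394) had 141.6, 144.8 and 149.1 CPM in cold mice, against 133.7, 125.0 and 133.1 CPM in ctrl mice. All 3 cold mice lay above all 3 ctrl mice, yet the log2 fold change of 0.15 (SE 0.10, 95% interval -0.04 to 0.35) did not pass the test (adjusted p = 0.298). Such non-overlap was seen in 35.1% of all tested genes and in 2 of the 9 genes here, Mff and Mtfp1. Mff transcripts with 1455 of its 1600 reads share up to 195 nt with C430014B12Rik on the opposite strand, which had 32 reads.

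Fis1 (chromosome 5, 136953275 to 136966234), a tail-anchored outer membrane protein, had 85.5, 87.7 and 83.85 CPM in cold mice and 89.1, 91.35 and 70.3 CPM in ctrl mice. The cold mice fell inside the range of the ctrl mice, whose spread came from mouse 14 (log2 fold change 0.04, 95% interval -0.20 to 0.28, adjusted p = 0.859). Mief1 (chromosome 15, 80234018 to 80253371), an adaptor that binds Dnm1l and nucleotides, had 12.1, 20.5 and 14.0 CPM in cold mice and 17.9, 11.2 and 14.4 CPM in ctrl mice (adjusted p = 0.819). With 174 reads in all it was the least read of the 9 genes, and its interval, -0.39 to 0.61, the widest. Mief1 transcripts with 172 of its 174 reads share up to 213 nt with another protein-coding gene on the same strand, which had 0 reads. How reads that fit both genes were assigned is not stated.

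Mief2 (chromosome 11, 60728398 to 60732951), the close relative of Mief1, showed the largest difference. It had 10.6, 20.0 and 22.7 CPM in cold mice 4, 11 and 15, from 22, 40 and 39 reads, against 20.8, 27.6 and 27.45 CPM in ctrl mice 2, 9 and 14, from 36, 54 and 59 reads. Cold mouse 4 was lowest, and ctrl mouse 2 lay within the range of the cold mice. The log2 fold change was -0.53 (SE 0.22, 95% interval -0.99 to -0.07), which did not pass after adjustment over all genes (adjusted p = 0.096, edgeR). Without cold mouse 15, which had the highest muscle marker level, the log2 fold change was -0.73 and passed (adjusted p = 0.0319). It also passed with the muscle marker level as a covariate (-1.01, adjusted p = 0.00537) and without both cold mouse 15 and ctrl mouse 2 (-0.84, adjusted p = 0.0373), while without cold mouse 4 it was -0.26 (adjusted p = 0.475). Over all alternatives its adjusted p ranged from 0.00537 to 0.475.

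**Figure D1:**
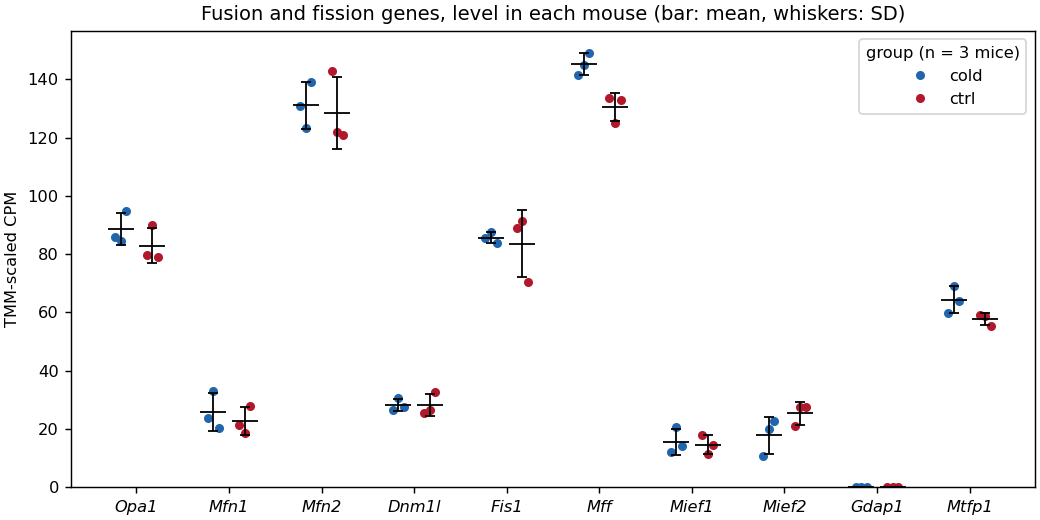
TMM-scaled CPM of the 10 genes (y axis) in each of the 3 cold mice (left of each pair) and the 3 ctrl mice (right); points are mice, bars the mean and whiskers the SD. The groups overlap in every gene with reads but Mff and Mtfp1, and Gdap1 is at 0 in all 6 libraries.

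Mtfp1 (chromosome 11, 4091480 to 4095445), an inner membrane protein whose loss is known to favour fused mitochondria, had 59.9, 69.1 and 64.05 CPM in cold mice, against 59.0, 58.7 and 55.4 CPM in ctrl mice. The cold mice lay above the ctrl mice, but the log2 fold change was 0.16 with an interval of -0.08 to 0.40 (adjusted p = 0.39). Gdap1 (chromosome 1, 17145362 to 17164271), an outer membrane protein known from inherited neuropathy and expressed in nerve, had 0 reads in all 6 libraries. A count of 0 allows up to 3 reads, or 1.34 to 1.81 CPM per library. Nerve and Schwann cell markers were present, 8 of 8 with reads, and summed to 152 to 185 CPM in cold and 158 to 212 CPM in ctrl mice.

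**Figure D2:**
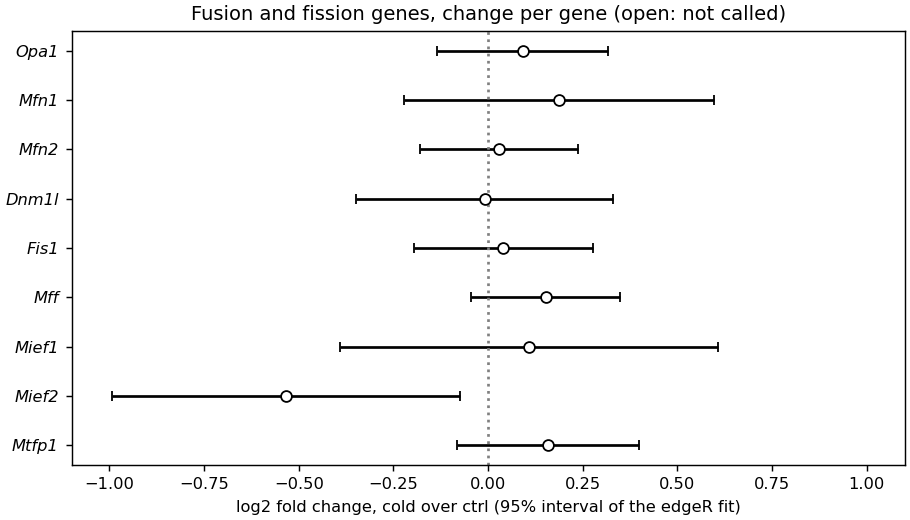
Log2 fold change of cold over ctrl (x axis) with its 95% interval from the edgeR fit for the 9 genes with reads (y axis). Only the interval of Mief2, -0.99 to -0.07, lies wholly on one side of 0, and no gene passed after adjustment.

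In this protocol a read stands for a cDNA molecule whatever its length, so read counts are compared between genes as they are, with the per-length order beside them. Over all 6 libraries Mff averaged 137.9 CPM and Mfn2 129.9 CPM, above 90.6% and 90.1% of all tested genes. Opa1 (85.7 CPM) and Fis1 (84.6 CPM) came next and could not be put in order, each being higher in 3 of 6 mice. Mtfp1 (61.0 CPM) followed, lower than Fis1 in all 6 mice. Dnm1l (28.2 CPM), Mfn1 (24.1 CPM) and Mief2 (21.5 CPM) overlapped, and Mief1 (15.0 CPM) overlapped Mief2. The mitofusins stood apart: the lowest Mfn2 value, 121.0 CPM, was above the highest Mfn1 value, 33.1 CPM. Per kilobase of each gene's most-read transcript, Fis1 was first (108 CPM per kb), followed by Mff (72.8), Mtfp1 (43.25), Mfn2 (29.9) and Opa1 (13.8 CPM per kb), so the place of Opa1 and Mfn2 depends on the scale.

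Splice forms were compared next. Of the 54 transcripts with a read, 21 had enough reads to be tested and held all but 293 of the 6820 reads. Of the 21, 0 were higher and 1, Fis1-202, was lower in cold mice by edgeR's test at an adjusted p of 0.05. Of all 11699 tested transcripts 16.9% passed, 8.68% higher and 8.22% lower in cold mice. For the split of reads over the transcripts of a gene, 0 of the 5 genes with at least 2 tested transcripts (Opa1, Mfn2, Dnm1l, Fis1 and Mff) were called by edgeR's diffSpliceDGE at an adjusted p of 0.05, beside 0.195% of all 2568 genes so tested. Fis1 alone of the 5 had an unadjusted p under 0.05 there (adjusted p = 0.397, Simes' method).

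Fis1-202, which begins at the upstream first exon, had 9, 9 and 8 reads in cold mice 4, 11 and 15, against 18, 26 and 12 reads in ctrl mice 2, 9 and 14. The 3 cold mice lay below all ctrl mice, of which mouse 14 was closest. Groups did not overlap in CPM in 32.2% of all tested transcripts. The level of Fis1-202 was 4.62 ± 0.18 CPM in cold and 10.1 ± 4.02 CPM in ctrl mice (SD, n = 3 each). That is a log2 fold change of -1.096 (SE 0.35, adjusted p = 0.0248), or 2.14-fold lower. The share of Fis1-202 among the reads of both forms was 5.09%, 5.17% and 5.59% in cold mice, with 95% Wilson intervals from 2.70% to 10.65% covering counting error only, and 11.8%, 14.6% and 8.0% in ctrl mice, with intervals from 4.64% to 20.5%. The intervals of ctrl mouse 14 and the cold mice overlapped, and the difference of the means was -6.17 percentage points (exact two-sided permutation test over mice, p = 0.1, the smallest that 3 against 3 mice can give). Fis1-201, which holds 91.1% of the gene's reads, averaged 82.8 ± 1.78 CPM in cold and 75.6 ± 8.21 CPM in ctrl mice and did not pass (log2 fold change 0.14, adjusted p = 0.512). The 2 forms differ in their first exons, at the end farthest from where cDNA synthesis starts. Whether each counted read reached the first exon is not recorded, so the level and share of Fis1-202 are those of the authors' assignment.

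The call of Fis1-202 was lost when 1 mouse was left out, in 5 of 6 cases: the adjusted p was 0.0953, 0.0678 and 0.0525 without cold mouse 4, 11 and 15, and 0.0701 and 0.226 without ctrl mouse 2 and 9, whereas it was 0.00584 without ctrl mouse 14. It was also lost with DESeq2 (adjusted p = 0.18), with the muscle covariate (0.158), without a filter on low counts (0.0811) and without both cold mouse 15 and ctrl mouse 2 (0.1). The direction was kept in all of these, with log2 fold changes from -1.41 to -0.80. On either flow cell alone the transcript had too few reads to be tested, but the difference of its shares was -7.25 percentage points on flow cell 1 and -4.199 points on flow cell 2 (exact permutation p = 0.2 on each). The comparison of first exons was chosen after the values were seen.

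**Figure D3:**
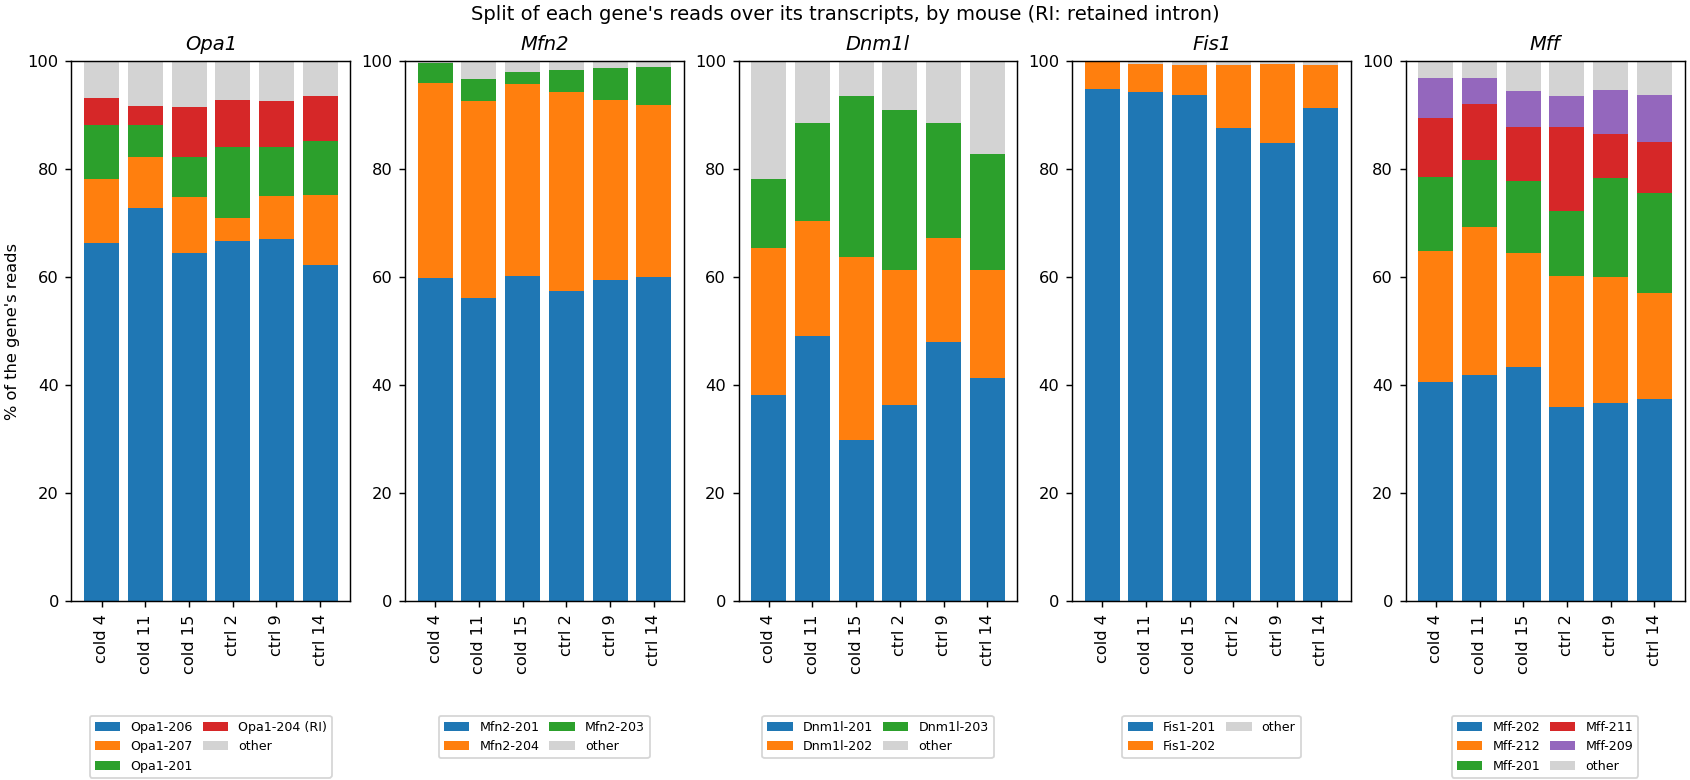
Percent of the reads of Opa1, Mfn2, Dnm1l, Fis1 and Mff (y axis) on each tested transcript, 1 bar per mouse, cold mice left and ctrl mice right; grey holds all other transcripts. Fis1-202 takes a smaller part of the bar in the cold mice (5.26 ± 0.26%) than in the ctrl mice (11.4 ± 3.30%), and Opa1-206 holds most of the bar of Opa1 in all 6 mice.

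Opa1 reads fell mainly on Opa1-206, a form with neither cassette exon (67.8 ± 4.39% of the gene's reads in cold and 65.4 ± 2.61% in ctrl mice). The 54 nt exon was held by 23 of 178, 18 of 168 and 19 of 163 informative reads in cold mice 4, 11 and 15, and by 24 of 138, 20 of 176 and 23 of 170 reads in ctrl mice 2, 9 and 14. The shares overlapped, at 11.8 ± 1.11% and 14.1 ± 3.05% (exact permutation p = 0.3). The 111 nt exon was held by 28, 23 and 25 of the same reads in cold mice, against 10, 23 and 27 in ctrl mice. Ctrl mouse 2 had the lowest share, and the means were 14.9 ± 1.08% in cold and 12.1 ± 4.40% in ctrl mice (exact permutation p = 0.4). Reads with the 54 nt exon include 33 on Opa1-205, annotated as a target of nonsense-mediated decay. Those with the 111 nt exon include 37 on Opa1-202, annotated with a retained intron. With protein-coding transcripts only, the differences of cold minus ctrl were -3.00 points for the 54 nt exon and 2.94 points for the 111 nt exon. Opa1-204, with a retained intron, took 5.94 ± 2.93% of the gene's reads in cold and 8.49 ± 0.23% in ctrl mice (adjusted p = 0.474 for its level). These exons lie far from the 3′ end, where cDNA synthesis starts: 5400 and 5468 nt from the end of Opa1-206 but 2258 and 2460 nt from the ends of the most-read forms that hold them. Whether each counted read reached the exons is not recorded in the tables, so the shares are those of the authors' assignment.

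In Dnm1l the 39 nt exon of the GTPase region was held by 15 of 49, 13 of 58 and 16 of 44 informative reads in cold mice and by 11 of 41, 10 of 49 and 14 of 64 reads in ctrl mice. Cold mouse 11 lay within the ctrl range, and the shares were 29.8 ± 7.01% in cold and 23.0 ± 3.37% in ctrl mice (exact permutation p = 0.2). The 33 nt exon of the variable region was held by 11 of 47, 13 of 56 and 14 of 44 reads in cold mice and by 14 of 41, 14 of 49 and 19 of 62 reads in ctrl mice, or 26.15 ± 4.91% and 31.1 ± 2.82% (exact permutation p = 0.3). The 78 nt exon, held by Dnm1l-203 alone, had 22.1 ± 8.73% in cold and 26.1 ± 4.92% in ctrl mice (exact permutation p = 0.6). On flow cell 2 alone the 2 differences in the variable region turned round, to 7.72 and 11.5 percentage points higher in cold mice. At 41 to 64 informative reads per mouse the 95% Wilson intervals of single mice, for counting error only, ran from 7.41% to 51.1% over the 3 exons. The 39 nt exon lies 3604 nt from the 3′ end of Dnm1l-202, which holds it. In Dnm1l-201, which lacks it, its place is 3607 nt from that end. As for Opa1, it is not recorded whether each counted read reached the exons, so these shares are those of the authors' assignment.

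Mff had the deepest coverage of a spliced region, with 225 to 291 informative reads per mouse. The 159 nt exon was held by 191 of 291, 200 of 284 and 167 of 250 reads in cold mice 4, 11 and 15, against 140 of 225, 148 of 240 and 164 of 277 reads in ctrl mice 2, 9 and 14. All 3 cold mice were higher, at 67.6 ± 2.50% against 61.0 ± 1.61% in ctrl mice, a difference of 6.59 percentage points (exact permutation p = 0.1, the smallest possible, and 0.6 adjusted over the 8 exons). Groups did not overlap for this 1 of the 8 exons, near the share over all genes: by the same rule 8.31% of 4330 coding cassette exons did not overlap, and 10.5% of the 1027 with at least 40 informative reads in every mouse. The difference stayed between 5.19 and 8.97 points over 9 alternatives. The neighbouring exons overlapped between groups: the 75 nt exon had 35.3 ± 3.19% in cold and 34.3 ± 5.79% in ctrl mice, and the 60 nt exon 82.4 ± 1.94% and 80.5 ± 2.62%. Among whole transcripts Mff-202, which holds the 159 nt and 60 nt exons but not the 75 nt exon, had 62.45 ± 3.96 CPM in cold and 49.4 ± 1.91 CPM in ctrl mice and did not pass (log2 fold change 0.33, adjusted p = 0.078). Mff-212, which holds all 3, had 36.0 ± 4.13 CPM in cold and 30.1 ± 3.29 CPM in ctrl mice (adjusted p = 0.302), and Mff-201, which lacks the 159 nt exon, had 19.5 ± 0.99 CPM and 21.9 ± 4.61 CPM (adjusted p = 0.614).

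**Figure D4:**
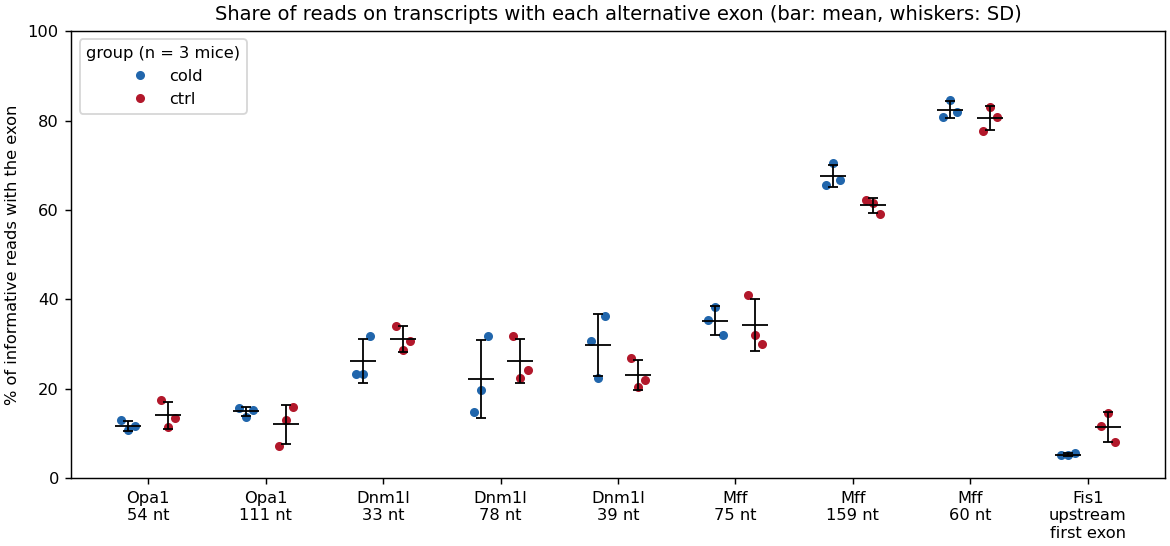
Percent of informative reads on transcripts with each of the 8 cassette exons, and with the upstream first exon of Fis1 (y axis), in each cold mouse (left of each pair) and ctrl mouse (right); bars are means and whiskers SD. Cold and ctrl mice do not overlap for the 159 nt exon of Mff (67.6 against 61.0%) and for the Fis1 first exon (5.28 against 11.5%). Over all genes 8.31% of 4330 coding cassette exons did not overlap, and no such share was computed for first exons.

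The 3 tested Mfn2 transcripts have the same coding length, 2271 nt, and differ at their ends: Mfn2-201 holds an exon of 83 nt that the other forms lack. Mfn2-203 has a first exon of 249 nt, against 47 nt in Mfn2-201 and 30 nt in Mfn2-204, and a last exon of 1443 nt, against 1860 nt in both others. Mfn2-201 held 58.7 ± 2.27% of the gene's reads in cold and 59.0 ± 1.31% in ctrl mice, and Mfn2-204 36.1 ± 0.51% and 34.1 ± 2.52%. Mfn2-201 and Mfn2-204 share their last exon and differ near the 5′ end, in the 83 nt exon and the first exon. Whether each counted read reached that end is not recorded, so their shares are those of the authors' assignment. The rarer Mfn2-203 had 10, 10 and 5 reads in cold mice, against 10, 14 and 18 reads in ctrl mice (log2 fold change -0.74, adjusted p = 0.173). Groups of Mfn2-203 did not overlap in CPM, as in 32.2% of all tested transcripts. Among the tested transcripts described here, the others without overlap in CPM were Fis1-202, lower in cold mice, and Fis1-201, Mff-202 and Mtfp1-201, higher in cold mice. Mfn1, Mief1, Mief2 and Mtfp1 had 1 tested transcript each, which held between 73.6 and 99.7% of the gene's reads.

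By the rule for likeness, Mief2, the gene with the lowest p, was set beside 6492 genes of at least 10 CPM. The closest in profile over the 6 libraries were Med12, Acss3 and Zhx1, with root mean square differences of 0.13, 0.15 and 0.15 in centred log2 CPM. Med12 had 9.66, 14.0 and 16.3 CPM in cold mice and 15.6, 18.9 and 20.5 CPM in ctrl mice.

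Other genes that act on mitochondrial shape and movement were read for comparison, 39 genes in 5 groups, of which 37 were tested. In the cold 9 rose and 1 fell, 27.0% of those tested beside 20.0% of all genes, with a median log2 fold change of 0.06 beside 0.00 (0.0014) over all genes. The lists were chosen with earlier results of these data known, so the 2 shares are not an independent comparison. Without both cold mouse 15 and ctrl mouse 2, the extremes in muscle markers, 5 rose and 0 fell. Of the 10 calls 6 were lost when 1 mouse was left out, as given for each gene. Calls over all genes fell as well with single mice left out. They went from 869 to between 700 and 772 higher, and from 870 to between 676 and 721 lower in cold mice.

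Of 3 tested genes listed as linked to fusion 2 rose, where the listing does not state whether a gene favours fusion or limits it. Pld6, a phospholipase of the outer membrane that makes phosphatidic acid, had 33, 20 and 18 reads in cold mice, against 7, 7 and 11 reads in ctrl mice. Every cold mouse was higher, and the level rose 2.83-fold (log2 fold change 1.5025, SE 0.32, adjusted p = 0.000918), a call kept in all 14 alternatives in which it was tested. Slc25a46, an outer membrane protein of the carrier family, rose to 98.2 ± 16.9 CPM in cold mice, against 74.5 ± 10.3 CPM in ctrl mice (adjusted p = 0.0231; 0.214, 0.115 and 0.0931 when cold mouse 11, ctrl mouse 9 or ctrl mouse 14 was left out). Of the 5 genes around Opa1 processing 1 rose: Phb, a prohibitin of the inner membrane, reached 431 ± 26.3 CPM in cold and 358 ± 22.0 CPM in ctrl mice (adjusted p = 0.0148; 0.121, 0.061 and 0.0845 without cold mouse 4, ctrl mouse 2 and ctrl mouse 9). The Opa1 proteases did not pass, with log2 fold changes of 0.02 for Oma1 and -0.03 for Yme1l1.

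Of 12 tested genes linked to fission 1 rose, March5, a ubiquitin ligase of the outer membrane. It had 293.5 ± 9.92 CPM in cold and 249 ± 21.3 CPM in ctrl mice (log2 fold change 0.24, adjusted p = 0.0462). Its adjusted p lay between 0.0388 and 0.242 over the alternatives and was 0.0763, 0.121, 0.0665, 0.242 and 0.127 without cold mouse 4, 11 and 15 and ctrl mouse 9 and 14. Dnm2, another dynamin, had 24.5 ± 4.89 CPM in cold and 28.7 ± 1.35 CPM in ctrl mice and did not pass (adjusted p = 0.423). Spire1 had the largest absolute log2 fold change of this group, -0.57, and did not pass either (adjusted p = 0.106).

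Among the 6 transport genes, the machinery that moves mitochondria along microtubules, 3 rose and 0 fell. Trak1, an adaptor between mitochondria and motors, rose to 82.6 ± 9.60 CPM in cold mice, against 57.2 ± 8.45 CPM in ctrl mice (log2 fold change 0.54, adjusted p = 0.00224; 0.0913 on flow cell 2 alone, the highest of its alternatives). Rhot2, the outer membrane GTPase that binds these adaptors, had 67.2 ± 3.51 CPM in cold and 51.8 ± 7.36 CPM in ctrl mice (adjusted p = 0.0332; 0.114, 0.0933, 0.093 and 0.194 without cold mouse 4, cold mouse 15, ctrl mouse 2 and ctrl mouse 9). Kif5b, a kinesin heavy chain, had 81.1 ± 4.31 CPM in cold and 63.05 ± 7.73 CPM in ctrl mice (adjusted p = 0.0283; 0.114, 0.0998 and 0.133 without cold mouse 4, ctrl mouse 2 and ctrl mouse 14). Rhot1, the relative of Rhot2, did not pass (log2 fold change -0.02, adjusted p = 0.954).

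In the group of 11 genes around cristae junctions 2 rose and 1 fell. Those that rose, Dnajc11 and Mtx2, belong to the outer membrane side of this assembly. Dnajc11 rose to 86.0 ± 7.21 CPM in cold mice, against 56.2 ± 8.04 CPM in ctrl mice (log2 fold change 0.61, adjusted p = 0.000487; 0.413 on flow cell 2 alone). Mtx2, a metaxin, rose to 232 ± 13.3 CPM in cold mice, against 181 ± 5.06 CPM in ctrl mice (adjusted p = 0.00363; 0.105 on flow cell 1 alone). Chchd6, a subunit of the junction complex, fell to 37.7 ± 7.25 CPM in cold mice, against 52.1 ± 10.4 CPM in ctrl mice (log2 fold change -0.47, adjusted p = 0.0389). That call was lost without cold mouse 4, cold mouse 11, ctrl mouse 2 or ctrl mouse 14 (adjusted p = 0.232, 0.0546, 0.243 and 0.0707). Immt, the core subunit, had 373 ± 23.3 CPM in cold and 347 ± 11.05 CPM in ctrl mice and did not pass (adjusted p = 0.409).

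**Figure D5:**
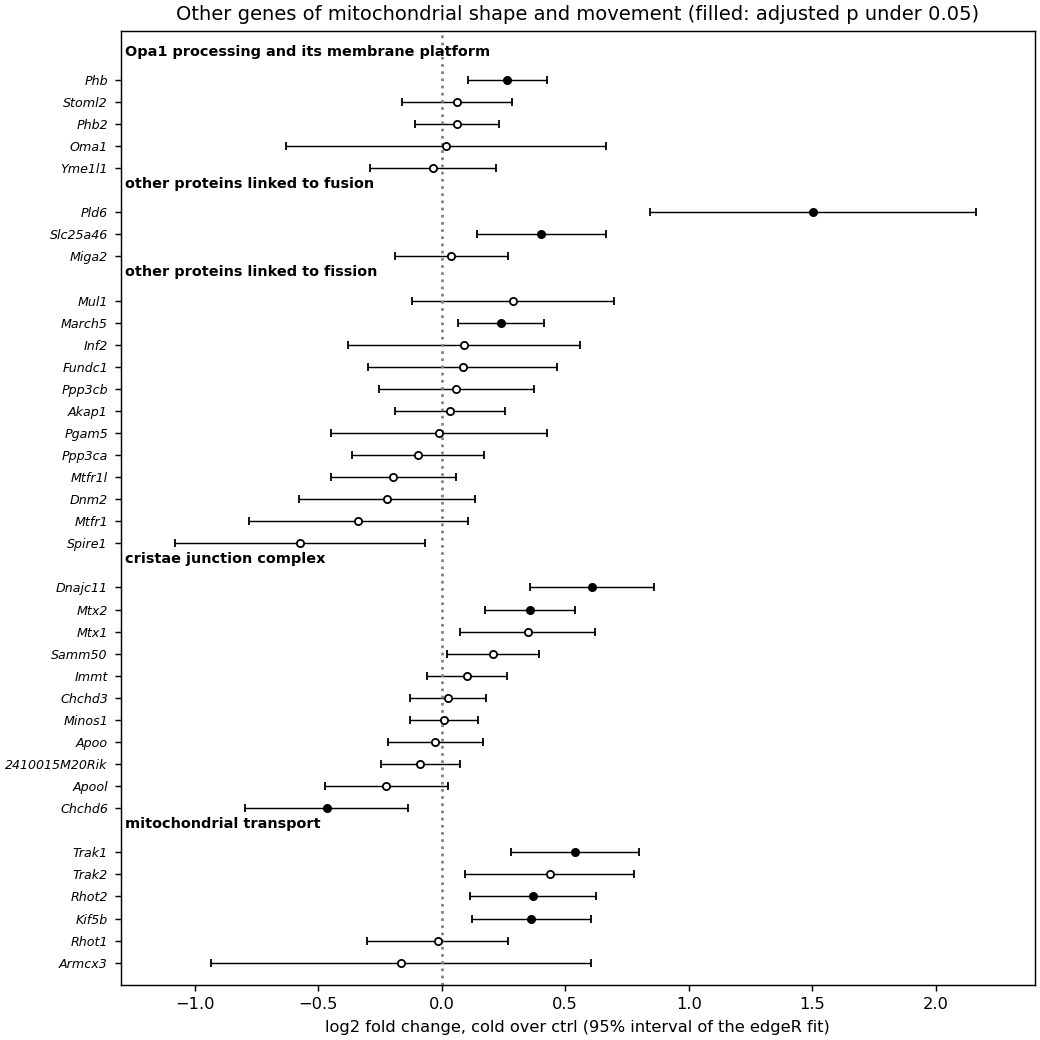
Log2 fold change of cold over ctrl (x axis) with its 95% interval for the 37 tested genes of mitochondrial shape and movement (y axis), by group; filled points passed at an adjusted p of 0.05. Pld6 stands farthest to the right at 1.5025, and of the 10 filled points only Chchd6 lies below 0.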

How the data were processed

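The authors deposited read counts for each annotated transcript, whole numbers in 1 table per flow cell and mouse, in which transcripts with no read are not listed. Reads were mapped with minimap2 to GRCm38, per the submitters' processing notes; its version, the annotation, read filters, strand and the handling of reads that fit several transcripts are not stated in the labels or headers, so a read may have been assigned to a wrong splice form or strand. The extraction text names another fat depot, whereas the tissue fields name interscapular brown fat, which was followed. The 10 genes and the lists were chosen with earlier results of these data known.

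Transcripts were matched to GENCODE M21 (59371 of 59543; the rest held 0.0836% of reads and were left out), and flow cells were summed, so n is mice. Genes, transcripts and transcript usage were tested over the whole tables with edgeR 4.0.16 in R 4.3.3 (TMM, filterByExpr, glmQLFit with robust estimation, glmQLFTest, diffSpliceDGE), all 6 libraries and no covariate, with Benjamini-Hochberg adjustment; SE and intervals come from the F statistic. DESeq2 1.42.0 was an alternative. Fits were tested on simulated data with larger changes than any of the 10 genes showed, so that test does not cover small changes. CPM are given per mouse or as mean ± SD. An exon's share is the reads on transcripts with it of those with or without it, for coding cassette exons with at least 20 informative reads and a minor form of at least 5%; the same rule was run over all genes, for exons with an informative read in every mouse. Named genes were all 10, every tested transcript of theirs in the text or figures, and every called gene of the other lists. Oma1, Yme1l1, Dnm2, Spire1, Rhot1 and Immt did not pass and were named outside this rule. Near-identical copies were sought with minimap2 2.31 (at least 200 nt at 95% identity): none had a read. The first exons of Fis1 were compared after the values were seen.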

Additional observations from a re-analysis of the deposited data

How the results depend on the processing

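No paired analysis was possible because the mouse numbers of the groups differ. The alternatives were another scaling, DESeq2, no filter on low counts, each flow cell alone, mitochondrially encoded genes left out, a skeletal muscle covariate, protein-coding transcripts only, overlapping transcripts left out (Dnm1l and Mief1 then had too few reads to be tested), each mouse left out and, chosen after seeing the data, cold mouse 15 and ctrl mouse 2 left out together. Of the fusion and fission genes 0 rose under all of them, and 1 fell (Mief2) with the muscle covariate, with both mice left out, and in a range of 0 to 1 with single mice left out. Of their transcripts 1 fell, against 0 with DESeq2, on flow cell 1 or 2 alone and without a filter, and 0 to 1 with single mice left out; with the muscle covariate, both mice left out, or cold mouse 15 or ctrl mouse 2 left out alone, the 1 that fell was Mief2-201 and not Fis1-202. In the wider list 9 rose, against 4 with DESeq2, 1 on flow cell 2, 5 with the muscle covariate, 5 with both mice left out and 5 to 7 with single mice left out; 1 fell, against 0 with DESeq2, on either flow cell, with the muscle covariate and with both mice left out, and 0 to 1 with single mice left out. Over all genes 869 rose and 870 fell, against 700 to 772 and 676 to 721 with single mice left out. Across all alternatives 457 to 910 of all genes rose and 432 to 994 fell. Of the 8 exons 1 did not overlap, against 3 on flow cell 2 and 1 to 3 with single mice left out. Over the exons of all genes 8.31% did not overlap, 7.01% on flow cell 2 and 16.9 to 17.8% with single mice left out. Transcript usage gave 0 calls in the settings run for it.

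Signs turned for results that had not passed, and none passed with the turned sign. Genes so affected were Mfn2 (-0.0061 with upper-quartile scaling, -0.0188 to 0.11 with single mice left out), Mfn1 (-0.0341 to 0.38), Dnm1l (0.0858 on flow cell 2, -0.0721 to 0.11), Fis1 (-0.0314 on flow cell 2, -0.079 to 0.10), Mff (-0.0771 without overlapping transcripts, which hold most of its reads) and Mief1 (-0.0266 on flow cell 1, -0.0261 with protein-coding transcripts only, -0.15 to 0.27). Transcripts were Mfn1-201 (-0.0359 to 0.38), Mfn2-201 (-0.0075 on flow cell 2, -0.003 with upper-quartile scaling, -0.0399 to 0.10), Dnm1l-201 (-0.38 to 0.065), Dnm1l-203 (-0.59 to 0.0051), Mff-211 (-0.24 on flow cell 2, -0.12 to 0.40), Mff-209 (-0.26 to 0.0522) and Mief1-201 (0.014 without a filter, 0.12 with the muscle covariate, 0.32 with both mice left out, -0.38 to 0.22). Exon differences that turned were those of Dnm1l on flow cell 2 (7.72 points for 33 nt, 11.5 for 78 nt) and the 75 nt exon of Mff (-1.175 points on flow cell 2, -1.23 to 4.24 with single mice left out). The cause was not tested. The call of Fis1-202 rests on 82 reads in all.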
